A study of Mus musculus with 16 samples.

Results

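The genes described here mark monocytes and the macrophages of bone marrow. They were chosen as 36 named genes, of which 35 had an array probe set that named no other gene, out of 19938 genes measured in all. The level of Slc11a1, an iron transporter gene of phagosomes, was not analysed here, though its promoter was searched. The series used 16 arrays of mouse bone marrow to ask how loss of 1 allele of Bank1 acts in B cell precursor acute lymphoblastic leukemia, a cancer of immature B cells. Of these, 6 arrays held leukemic marrow of mice heterozygous for both genes (Bank1+/- + Pax5+/-, written Bank1/Pax5 leukemia), 6 held leukemic marrow of Pax5+/- mice (Pax5 leukemia) and 4 held pro-B and pre-B cells of wild-type mice (WT). Both leukemia groups therefore carry a heterozygous Pax5, and no group had Bank1+/- alone. The labels describe the leukemic samples as total marrow and the WT samples as a pro-B and pre-B fraction, although the cell type label of WT also speaks of leukemia; the way that fraction was isolated and the age, sex and strain of the mice are not stated there. All animals came from a conventional facility, with exposure to common pathogens.

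Monocytes leave the marrow for the blood and can become macrophages in tissues. Macrophages that stay in the marrow sit at the centre of erythroblast islands, engulf the nuclei that maturing red cells expel, clear dying cells and recycle iron from haemoglobin. Their growth and survival depend on the receptor for colony-stimulating factor 1, and in B cell precursors Pax5 keeps the gene of that receptor, Csf1r, repressed. In RNA of mixed cells, more cells of a type and more RNA per cell cannot be told apart. This holds for every result below. By their labels, comparisons with WT also set total marrow against a pro-B and pre-B fraction. Leukemia and cell fraction therefore cannot be told apart there. In those comparisons, rose and fell mean only higher and lower than the WT arrays.

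Values are log2 probe set intensities as deposited, with differences on the same log2 scale. A probe set mean under 7.01, the median of all probe sets that named 1 gene, is called dim, and the size of a difference from a dim group is not well bounded. Of the 35 genes, 25 were dim in WT, 10 in Pax5 leukemia and 3 in Bank1/Pax5 leukemia; Marco, Timd4 and Cd14 were dim in all 3 groups. Levels of single genes are compared between arrays, never between genes. Medians over a list differ in this, since the gene at the median can change from array to array. Nothing but the replicate numbers of the labels says that arrays come from separate mice, and the design text names 3 WT mice for 4 WT arrays, so the spread among WT arrays may be partly technical. Over all probe sets, pairs of arrays had a Pearson r of 0.992 to 0.995 within WT, 0.968 to 0.982 within Pax5 leukemia and 0.944 to 0.987 within Bank1/Pax5 leukemia. The Bank1 probe set read 9.0 to 9.26 in WT, 8.80 to 11.09 in Pax5 leukemia and 7.26 to 9.52 in Bank1/Pax5 leukemia, and that of Pax5 read 11.85 to 12.12, 7.52 to 12.21 and 7.85 to 11.85; whether these probe sets lie within the deleted parts is not known, so they do not check the genotypes. B cell precursor markers had a median level of 12.18 to 12.29 on the WT arrays, as their label states, and of 7.80 to 11.75 on the 12 leukemia arrays. Of 10 such markers, 2 were called lower in each leukemia group than in WT and none higher, beside 13.8% of all genes called lower in Pax5 leukemia and 12.8% in Bank1/Pax5 leukemia.

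The shared level of the genes, taken as the median over the 35 on each array, was higher on all 12 leukemia arrays than on any WT array. It was 6.64, 6.56, 6.39 and 6.60 on the WT arrays, 7.95, 8.60, 7.79, 8.13, 8.50 and 8.56 on arrays 1 to 6 of Pax5 leukemia, and 9.10, 8.14, 8.37, 10.51, 10.14 and 8.87 on arrays 1 to 6 of Bank1/Pax5 leukemia. Arrays 4 and 5 of Bank1/Pax5 leukemia stood highest, and arrays 2 and 3 of that group lay within the range of Pax5 leukemia. The group means were 6.55 ± 0.11 (SD, n = 4), 8.25 ± 0.35 (SD, n = 6) and 9.19 ± 0.95 (SD, n = 6). The shared level was thus 3.26-fold higher in Pax5 leukemia and 6.23-fold higher in Bank1/Pax5 leukemia than in WT. It was 1.91-fold higher in Bank1/Pax5 than in Pax5 leukemia. These folds come from a median whose gene changes between arrays. The median log2 difference of single genes was smaller, at 1.47 and 2.36 from WT in Pax5 and Bank1/Pax5 leukemia and 0.60 between them. No test was made of the shared level, because the genes were chosen with results of these data known. The difference between the leukemia groups, 0.93 on the log2 scale, was smaller than the SD among the Bank1/Pax5 arrays.

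**Figure D1:**
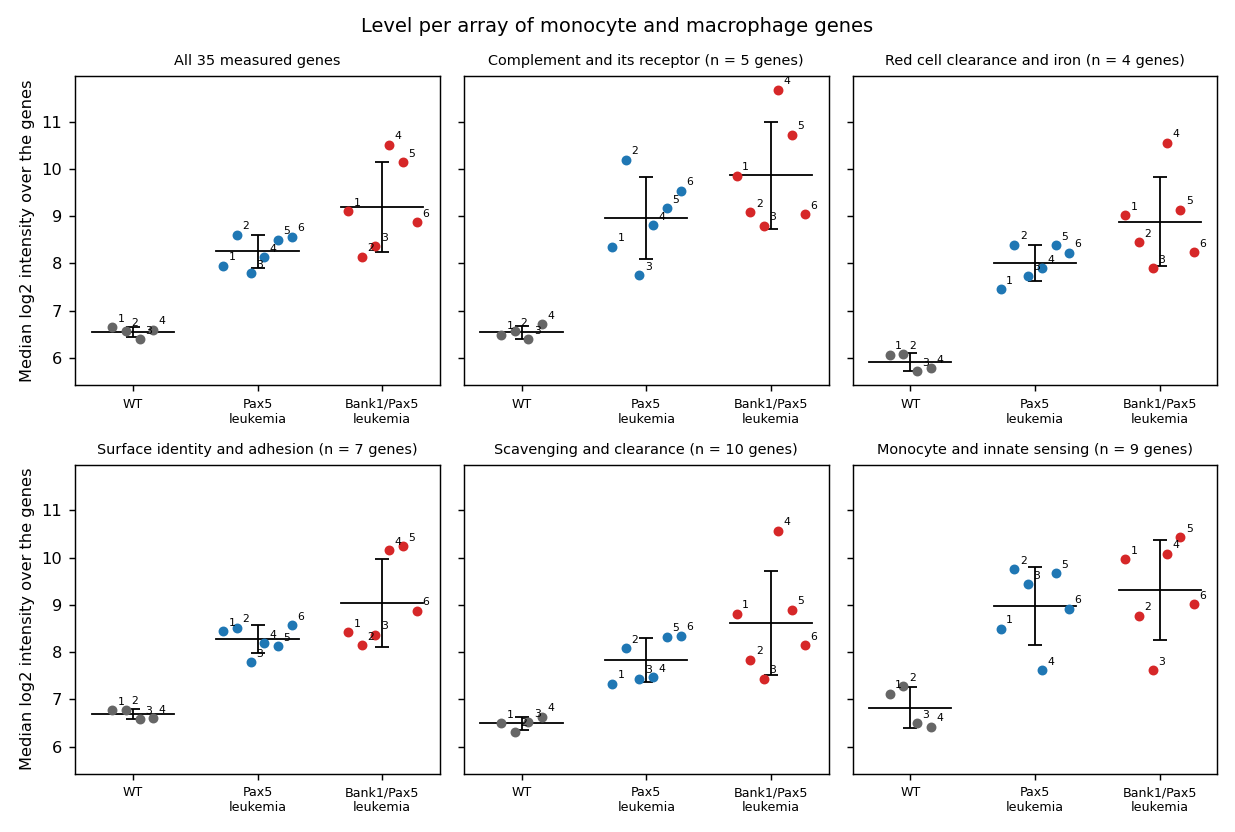
Median log2 intensity per array over all 35 genes and over each of 5 groups by role; points are arrays with their number in the group, lines are group means and bars are 1 SD (n = 4 WT, 6 Pax5 and 6 Bank1/Pax5 leukemia arrays). The medians of all leukemia arrays lie above those of the WT arrays in each panel. The highest, 10.51 and 10.14 over all genes, are arrays 4 and 5 of Bank1/Pax5 leukemia. The gene at the median changes between arrays. In the monocyte panel the medians differ from WT by 2.16 in Pax5 and 2.49 in Bank1/Pax5 leukemia. The median difference of its single genes is only 0.47 and 1.02.

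Each gene was tested in 1 limma model of the 3 groups fitted to all 19938 genes, and called where its two-sided p, adjusted by Benjamini-Hochberg over all of them, was under 0.05. In Pax5 leukemia 16 of the 35 genes were called higher than in WT and none lower, against 9.53% of all genes called higher and 23.3% called in either direction. In Bank1/Pax5 leukemia 24 were called higher and none lower, against 6.8% of all genes called higher and 19.6% called in either direction. The median difference of the 35 genes was 1.47 in Pax5 leukemia and 2.36 in Bank1/Pax5 leukemia, beside -0.048 and -0.033 over all genes. Every array of Pax5 leukemia lay above every WT array for 18 genes (11.6% of all genes did so), and every array of Bank1/Pax5 leukemia for 23 (7.35% of all genes). The 2 comparisons share the WT arrays. The 16 genes called in Pax5 leukemia were also called in Bank1/Pax5 leukemia, 8 more were called in Bank1/Pax5 leukemia, and 11 were called in neither. Between the leukemia groups 3 genes, Vsig4, Adgre1 and Adgre4, were called higher in Bank1/Pax5 leukemia and none lower, against 1.71% of all genes called higher and 6.7% called in either direction. Over all genes the split of calls depended on scaling: 1901 of 4655 calls were higher in Pax5 leukemia than in WT and 1356 of 3899 in Bank1/Pax5 leukemia, against 2302 of 4438 and 2079 of 4012 after cyclic loess, and 340 of 1336 against 452 of 1070 between the leukemia groups. After median centring 2021 of 3974 calls were higher in Pax5 leukemia than in WT and 1495 of 3594 in Bank1/Pax5 leukemia. Between the leukemia groups 271 of 1144 were higher after median centring, a split close to that without it.

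**Figure D2:**
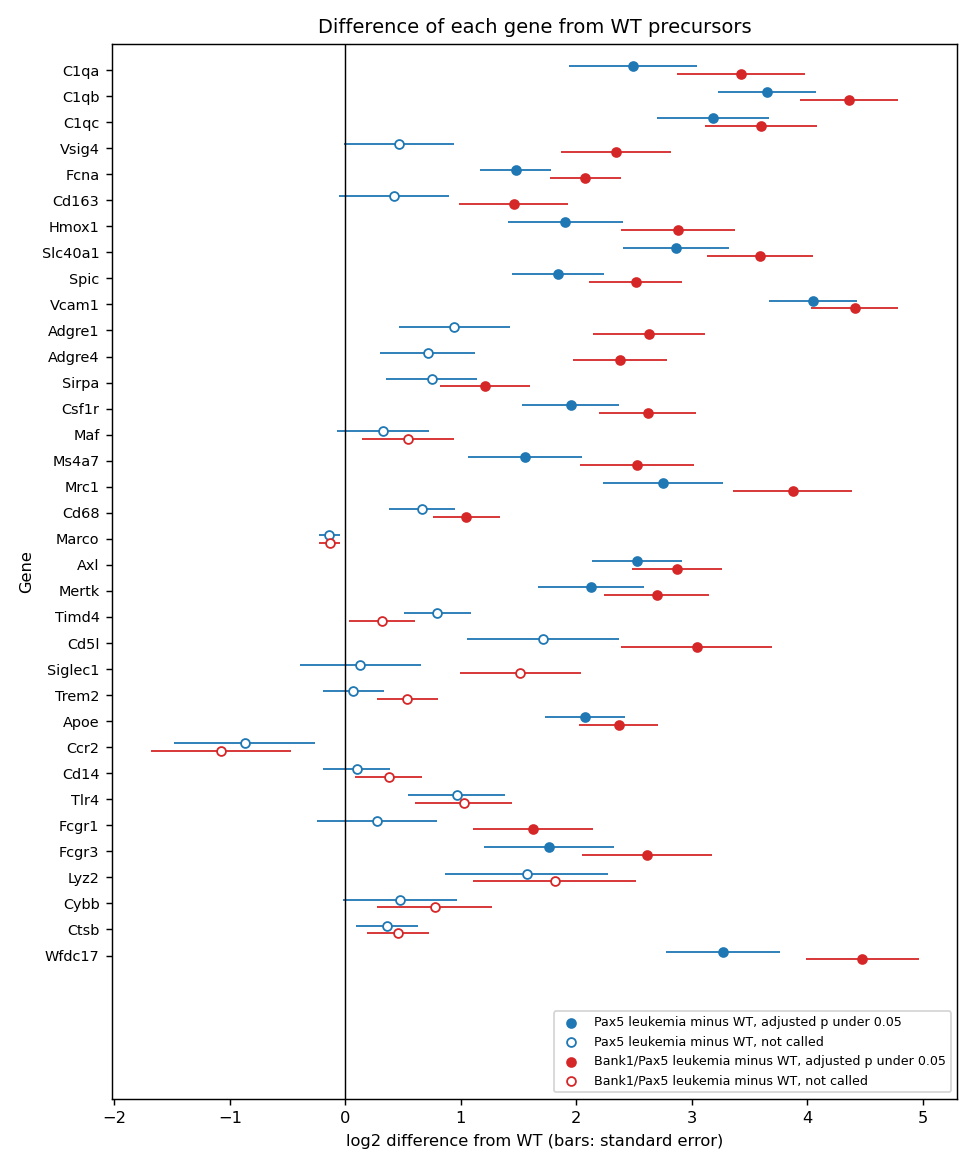
Difference of each gene from WT on the log2 scale in Pax5 leukemia (blue) and Bank1/Pax5 leukemia (red), with bars of 1 standard error; filled points have an adjusted p under 0.05. Genes of complement, red cell clearance, adhesion and scavenging lie mostly to the right of 0, whereas Ccr2 and Marco lie to the left without passing the test.

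The promoters of the genes were searched for 2 short cores, whether or not a gene was called. RefSeq promoter windows on GRCm38.p6, from 250 bases before to 50 bases after a start site, were found for 24 of the 36 genes, 28 windows in all. The letters GAGGAAG, a core that the myeloid factor PU.1 can bind, were searched on both strands (the reverse strand reads CTTCCTC). They were present in 12 of the 28 windows (42.9%), beside 13.6% of all 32851 promoter windows of the same length. The overlapping windows of Fcgr3 hold the same copy. Counted by gene, the core was in 11 of 24 (45.8%), beside 15.4% of 27025 genes. The genes with the core include Marco and Trem2, which were not called in any comparison, so the share is that of the listed genes and not of those that rose. TGACTCA, a core shared by AP-1 and Maf factors, was in 1 of the 28 (3.57%), that of Cd68, beside 5.2% of all windows. The 250 bases before the start site are printed for 5 of the 6 genes that were called higher in both leukemia groups and hold the PU.1-type core there; Fcgr3, the other one, has overlapping windows of 2 start sites and is not printed. Capitals mark the core on either strand, and in Fcna the last 2 copies share a base.
C1qc (chr4:136892915-136893164, minus strand): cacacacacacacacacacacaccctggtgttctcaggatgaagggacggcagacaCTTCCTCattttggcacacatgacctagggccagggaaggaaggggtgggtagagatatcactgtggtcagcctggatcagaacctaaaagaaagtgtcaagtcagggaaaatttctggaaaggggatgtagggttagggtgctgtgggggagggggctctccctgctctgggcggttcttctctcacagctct
Fcna (chr2:25627975-25628224, minus strand): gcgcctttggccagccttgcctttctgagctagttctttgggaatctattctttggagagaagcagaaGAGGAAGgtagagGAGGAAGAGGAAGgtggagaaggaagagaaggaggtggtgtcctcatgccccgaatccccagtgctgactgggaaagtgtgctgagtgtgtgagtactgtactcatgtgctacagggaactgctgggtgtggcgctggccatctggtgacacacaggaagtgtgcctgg
Mrc1 (chr2:14229164-14229413, plus strand): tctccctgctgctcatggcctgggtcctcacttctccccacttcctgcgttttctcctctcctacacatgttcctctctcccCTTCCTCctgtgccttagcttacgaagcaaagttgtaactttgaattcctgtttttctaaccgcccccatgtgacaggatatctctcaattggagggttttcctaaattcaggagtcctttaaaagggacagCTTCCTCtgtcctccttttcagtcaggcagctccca
Axl (chr7:25788734-25788983, minus strand): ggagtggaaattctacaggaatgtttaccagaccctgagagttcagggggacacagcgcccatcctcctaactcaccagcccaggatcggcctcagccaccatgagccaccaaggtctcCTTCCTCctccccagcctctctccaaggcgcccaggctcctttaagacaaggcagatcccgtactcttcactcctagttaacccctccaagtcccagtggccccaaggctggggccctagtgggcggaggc
Wfdc17 (chr11:83703806-83704055, plus strand): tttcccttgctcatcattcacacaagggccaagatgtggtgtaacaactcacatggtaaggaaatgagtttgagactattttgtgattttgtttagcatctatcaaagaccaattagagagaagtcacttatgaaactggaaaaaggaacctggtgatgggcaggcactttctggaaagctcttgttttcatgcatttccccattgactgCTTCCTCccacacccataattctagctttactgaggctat
A match says only that these letters are present, and binding was not measured. Spi1, the gene of PU.1, had a mean of 10.62 ± 0.16 (SD, n = 4) on the WT arrays, of 10.93 ± 0.35 (SD, n = 6) for Pax5 leukemia and of 11.16 ± 0.49 (SD, n = 6) for Bank1/Pax5 leukemia, and did not pass the test in any comparison (adjusted p from 0.126 to 0.547).

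Of the 5 complement genes, 4 rose in Pax5 leukemia (all but Vsig4) and 5 in Bank1/Pax5 leukemia. Counts by role, here and below, stand beside 9.53% of all genes called higher than WT in Pax5 leukemia and 6.8% in Bank1/Pax5 leukemia. The C1q chains A, B and C assemble into the molecule that starts the classical complement pathway, and macrophages are its main source. C1qb was at 6.72, 6.56, 6.23 and 6.74 in WT, at 9.12 to 11.42 (median 10.22) in Pax5 leukemia and at 10.15 to 12.14 (median 10.65) in Bank1/Pax5 leukemia. All leukemia arrays lay above the WT arrays for each chain, and the leukemia groups overlapped. C1qb was 12.6-fold higher than WT in Pax5 leukemia (3.65 as log2, SE 0.42, adjusted p = 3.4e-05) and 20.6-fold higher in Bank1/Pax5 leukemia (4.36, SE 0.42, adjusted p = 8.49e-06). C1qa was at 6.29, 6.34, 6.39 and 6.71 in WT, at 7.72 to 10.20 (median 8.99) in Pax5 leukemia and at 8.80 to 11.67 (median 9.47) in Bank1/Pax5 leukemia, differing from WT by 2.49 and 3.43 (SE 0.55 each). C1qc, whose promoter is printed above, was at 6.49, 6.61, 6.69 and 6.60 in WT, at 8.17 to 10.67 (median 9.99) and at 9.31 to 11.76 (median 9.82), with differences of 3.18 and 3.60 (SE 0.49 each). For all 3 chains array 2 was the highest of Pax5 leukemia, array 3 the lowest of it, and array 4 the highest of Bank1/Pax5 leukemia. Fcna encodes ficolin A, a pattern receptor that starts the lectin pathway of complement. It was at 6.75, 6.91, 6.62 and 6.98 in WT, at 7.74 to 8.60 (median 8.35) in Pax5 leukemia and at 8.20 to 10.26 (median 8.79) in Bank1/Pax5 leukemia, without overlap with WT. Its differences from WT were 1.47 (SE 0.31, adjusted p = 0.00328) and 2.08 (SE 0.31, adjusted p = 0.000288).

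The remaining complement gene, Vsig4, separated the leukemia groups. It encodes a receptor by which resident macrophages bind complement-coated particles. It was at 5.18, 5.03, 5.33 and 5.07 in WT, at 5.82, 5.27, 6.02, 5.54, 5.96 and 5.12 in Pax5 leukemia and at 9.71, 6.56, 6.68, 7.94, 7.29 and 6.83 in Bank1/Pax5 leukemia. Every Bank1/Pax5 array lay above every Pax5 and WT array, with array 1 highest. Against Pax5 leukemia, Vsig4 was 3.68-fold higher (a log2 value of 1.88, SE 0.42, adjusted p = 0.019) and 5.08-fold higher than in WT (2.34, SE 0.47, adjusted p = 0.00297). It was dim in both Pax5 leukemia and WT, which did not differ beyond the test (0.47, SE 0.47, adjusted p = 0.5).

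**Figure D3:**
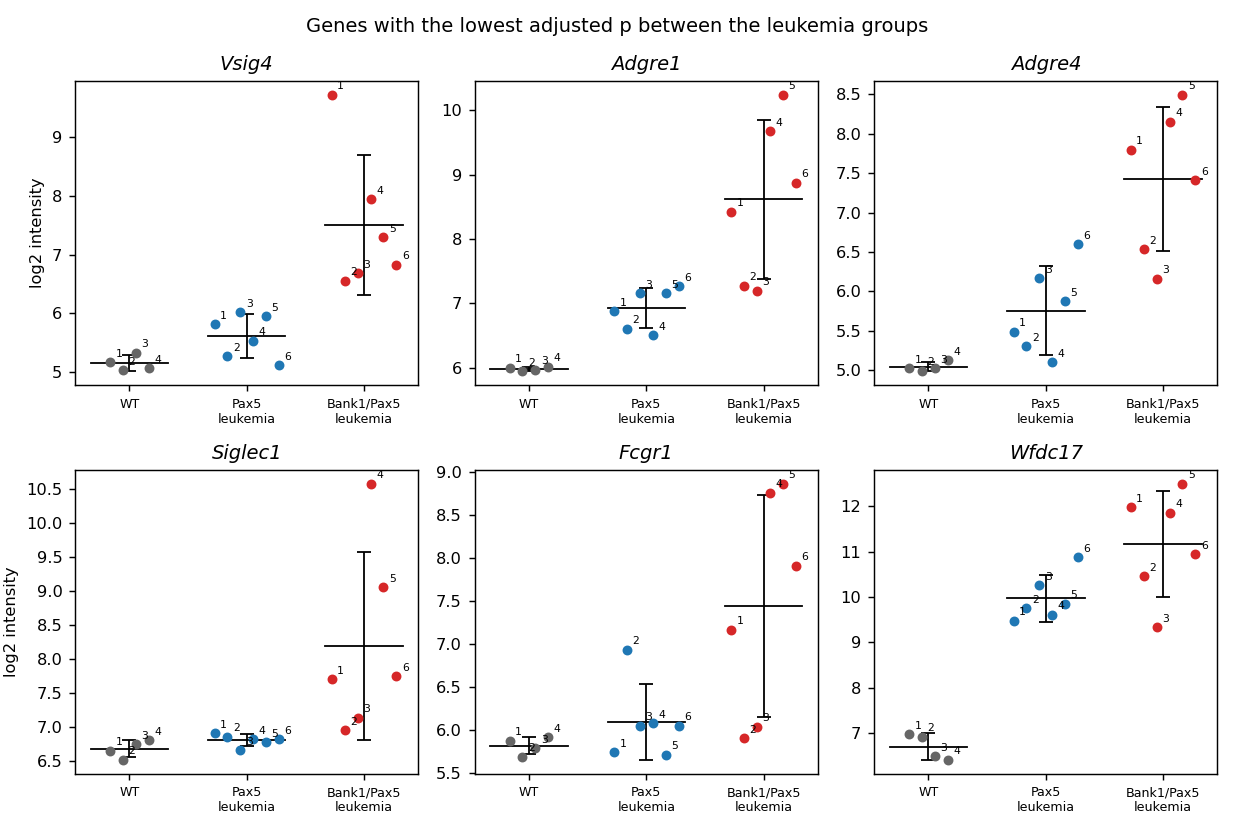
Log2 intensity per array of the 6 genes with the smallest adjusted p between the leukemia groups; points are arrays with their number, lines are group means and bars are 1 SD. Vsig4 and Siglec1 do not overlap between the leukemia groups, and arrays 2 and 3 of Bank1/Pax5 leukemia lie nearest to Pax5 leukemia for Adgre1, Adgre4, Siglec1 and Fcgr1.

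Adgre1 and its relative Adgre4 followed the same order. Adgre1 encodes the adhesion receptor by which mouse macrophages are commonly recognised, and Adgre4 a related receptor. Adgre1 was at 6.00, 5.94, 5.97 and 6.01 in WT, at 6.88, 6.60, 7.15, 6.50, 7.16 and 7.27 in Pax5 leukemia and at 8.42, 7.27, 7.20, 9.67, 10.24 and 8.87 in Bank1/Pax5 leukemia. Array 5 of Bank1/Pax5 leukemia was the highest, array 3 of that group lay below the highest Pax5 array, and array 2 just above it. The differences were 2.63 from WT (SE 0.48, adjusted p = 0.00149) and 1.69 from Pax5 leukemia (SE 0.43, adjusted p = 0.0327), that is 6.19-fold and 3.22-fold. Adgre4 was at 5.03, 5.00, 5.03 and 5.13 in WT, at 5.49, 5.31, 6.17, 5.10, 5.88 and 6.60 in Pax5 leukemia and at 7.80, 6.54, 6.16, 8.16, 8.49 and 7.41 in Bank1/Pax5 leukemia, so the leukemia groups overlapped through arrays 2 and 3 of Bank1/Pax5 leukemia and arrays 3 and 6 of Pax5 leukemia. Its differences were 2.38 from WT (SE 0.41, adjusted p = 0.000872) and 1.67 from Pax5 leukemia (SE 0.36, adjusted p = 0.0165). In Pax5 leukemia neither gene passed against WT, with differences of 0.94 (SE 0.48) for Adgre1 and 0.71 (SE 0.41) for Adgre4, though for Adgre1 all 6 arrays lay above the WT arrays. Both genes were dim in WT and in Pax5 leukemia.

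The calls between the leukemia groups were narrow. In a fit of those groups without WT, whose arrays vary least, the adjusted p was 0.0666 for Vsig4, 0.0609 for Adgre4 and 0.0921 for Adgre1, and none of the 35 genes was called. Without the 3 leukemia arrays whose Pax5 level was under 9 (array 3 of Pax5 leukemia, arrays 1 and 5 of Bank1/Pax5 leukemia), a choice made after seeing the data, Vsig4 was the only one of the 35 called (1.46, adjusted p = 0.0144). Leaving out array 2 of Bank1/Pax5 leukemia gave 5 calls, with Siglec1 and Fcgr1 added, and without array 3 also 5, with Fcgr1 and Wfdc17 added. The call of Adgre1 ended without any 1 of arrays 4, 5 and 6 of Bank1/Pax5 leukemia or arrays 1, 2, 4 and 5 of Pax5 leukemia (adjusted p from 0.0538 to 0.0667), and with the replicate number as a block (0.05002). Of the 35 genes, 33 had a higher mean in Bank1/Pax5 than in Pax5 leukemia, with a median difference of 0.60 beside 0.016 over all genes. An unadjusted p under 0.05 was found for 12 of the 35, beside 4518 of all 19938 genes.

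Of 4 genes of red cell clearance and iron handling, 3 rose in Pax5 leukemia (all but Cd163) and 4 in Bank1/Pax5 leukemia. Slc40a1 encodes ferroportin, the exporter that returns iron from macrophages to the blood. It was at 6.41, 6.42, 5.57 and 5.81 in WT, at 7.90 to 9.66 (median 8.91) in Pax5 leukemia and at 8.55 to 11.18 (median 9.57) in Bank1/Pax5 leukemia, without overlap with WT. It was 7.27-fold higher than WT in Pax5 leukemia (2.86, SE 0.46, adjusted p = 0.000485) and 12-fold higher in Bank1/Pax5 leukemia (3.59, SE 0.46, adjusted p = 8.61e-05). Hmox1, the enzyme that breaks down haem, was at 7.02, 7.23, 6.97 and 6.99 in WT, at 8.25 to 9.86 (median 8.72) in Pax5 leukemia and at 8.77 to 11.43 (median 9.62) in Bank1/Pax5 leukemia. Its differences from WT were 1.90 (SE 0.50, adjusted p = 0.0127) and 2.88 (SE 0.50, adjusted p = 0.000908). Spic, the transcription factor of iron-recycling macrophages, was at 5.68, 5.53, 5.68 and 5.69 in WT, at 7.02 to 7.99 (median 7.51) and at 7.02 to 9.92 (median 8.01), again without overlap with WT, and differed by 1.84 and 2.51 (SE 0.40 each). Cd163 encodes the receptor for haemoglobin bound to haptoglobin. It was at 5.72 to 5.76 in WT, at 5.76 to 6.49 (median 6.19) in Pax5 leukemia and at 7.78, 6.12, 6.64, 9.39, 6.58 and 6.67 in Bank1/Pax5 leukemia. Arrays 4 and 1 stood above the rest of that group, and Cd163 passed against WT there (1.46, SE 0.47, adjusted p = 0.043) but not in Pax5 leukemia (0.42, SE 0.47, adjusted p = 0.545). The Cd163 call ended without array 1 of Bank1/Pax5 leukemia (adjusted p = 0.0824), on leaving out any 1 WT array (0.0865 to 0.0930) or any 1 Pax5 array (0.0502 to 0.0524), in the fit of the 2 groups alone (0.106) and without the arrays with low Pax5 (0.104).

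Erythroid markers were measured beside these genes, since macrophages of erythroblast islands adjoin red cell precursors. The median of 9 erythroid markers was 7.63 to 8.94 in WT, 6.46 to 7.59 in Pax5 leukemia and 11.34, 7.70, 7.04, 8.09, 10.64 and 7.06 on arrays 1 to 6 of Bank1/Pax5 leukemia. None of the 9 was called higher in either leukemia group than in WT. In Pax5 leukemia 1 was called lower, beside 13.8% of all genes. Array 4 of Bank1/Pax5 leukemia, highest for all 4 measured genes of red cell clearance, thus had 8.09 for erythroid markers, and array 1, highest for erythroid markers, had 9.02 as the median of the 4 genes.

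Of 7 surface identity and adhesion genes, 3 were called higher in Pax5 leukemia and 6 in Bank1/Pax5 leukemia. Vcam1 encodes an adhesion molecule by which island macrophages hold erythroblasts, and stromal and endothelial cells carry it too. Vcam1 was at 6.77, 6.78, 6.58 and 6.63 in WT, at 9.99 to 11.17 (median 10.88) in Pax5 leukemia and at 10.21 to 12.74 (median 10.99) in Bank1/Pax5 leukemia. Both leukemia groups lay far above WT and overlapped each other, with differences from WT of 4.05 (SE 0.38, adjusted p = 5.83e-06) and 4.41 (SE 0.38, adjusted p = 3.18e-06), 16.6-fold and 21.3-fold. Csf1r, the receptor for colony-stimulating factor 1 and a gene that Pax5 represses in B cells, was at 6.97, 6.78, 6.66 and 6.60 in WT, at 8.12 to 9.68 (median 8.50) and at 8.17 to 10.68 (median 9.08). It rose by 1.95 (SE 0.42, adjusted p = 0.00403) and 2.62 (SE 0.42, adjusted p = 0.000532). On the arrays with low Pax5, Csf1r was at 9.21 in Pax5 leukemia (array 3) and in Bank1/Pax5 leukemia at 9.10 (array 1) and 10.68 (array 5). On the other arrays, with Pax5 at 9.92 or more, Csf1r was at 8.44, 9.68, 8.18, 8.12 and 8.56 in Pax5 leukemia and at 8.17, 9.06, 10.21 and 8.99 in Bank1/Pax5 leukemia. In each group 1 of these arrays exceeded 9.10 and the rest lay below it. The arrays with low Pax5 also had the highest median of neutrophil markers among the leukemia arrays (11.70, 12.33 and 12.07). The relation of Csf1r to Pax5 level or to cell content was not tested. Ms4a7, a membrane protein gene of macrophages, was at 5.10, 5.40, 5.28 and 5.17 in WT, at 5.70 to 7.63 (median 6.88) and at 6.64 to 9.15 (median 7.34), without overlap with WT. Its difference of 1.56 in Pax5 leukemia (SE 0.49, adjusted p = 0.0334) missed the test without any 1 WT array or without array 2, 5 or 6 of Pax5 leukemia (adjusted p from 0.0575 to 0.0826) and with the replicate block (0.0810), whereas that of 2.53 in Bank1/Pax5 leukemia (SE 0.49) had an adjusted p of 0.00225.

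Sirpa, the receptor by which macrophages read the self signal CD47, was well above the dim level in all groups. It was at 9.77, 9.48, 9.21 and 9.44 in WT, at 9.36 to 10.84 in Pax5 leukemia and at 9.60 to 11.79 in Bank1/Pax5 leukemia, and the leukemia groups overlapped with WT. It passed in Bank1/Pax5 leukemia (1.21, SE 0.39, adjusted p = 0.043), and this call ended under 14 of the 26 alternative settings, among them leaving out any 1 WT array (adjusted p from 0.0652 to 0.115) or array 1, 4, 5 or 6 of Bank1/Pax5 leukemia (0.0531 to 0.0861). Maf, a transcription factor of macrophages and some lymphocytes, was at 8.07 to 8.28 in WT, 7.79 to 9.17 in Pax5 leukemia and 7.94 to 10.15 in Bank1/Pax5 leukemia and did not pass.

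**Figure D4:**
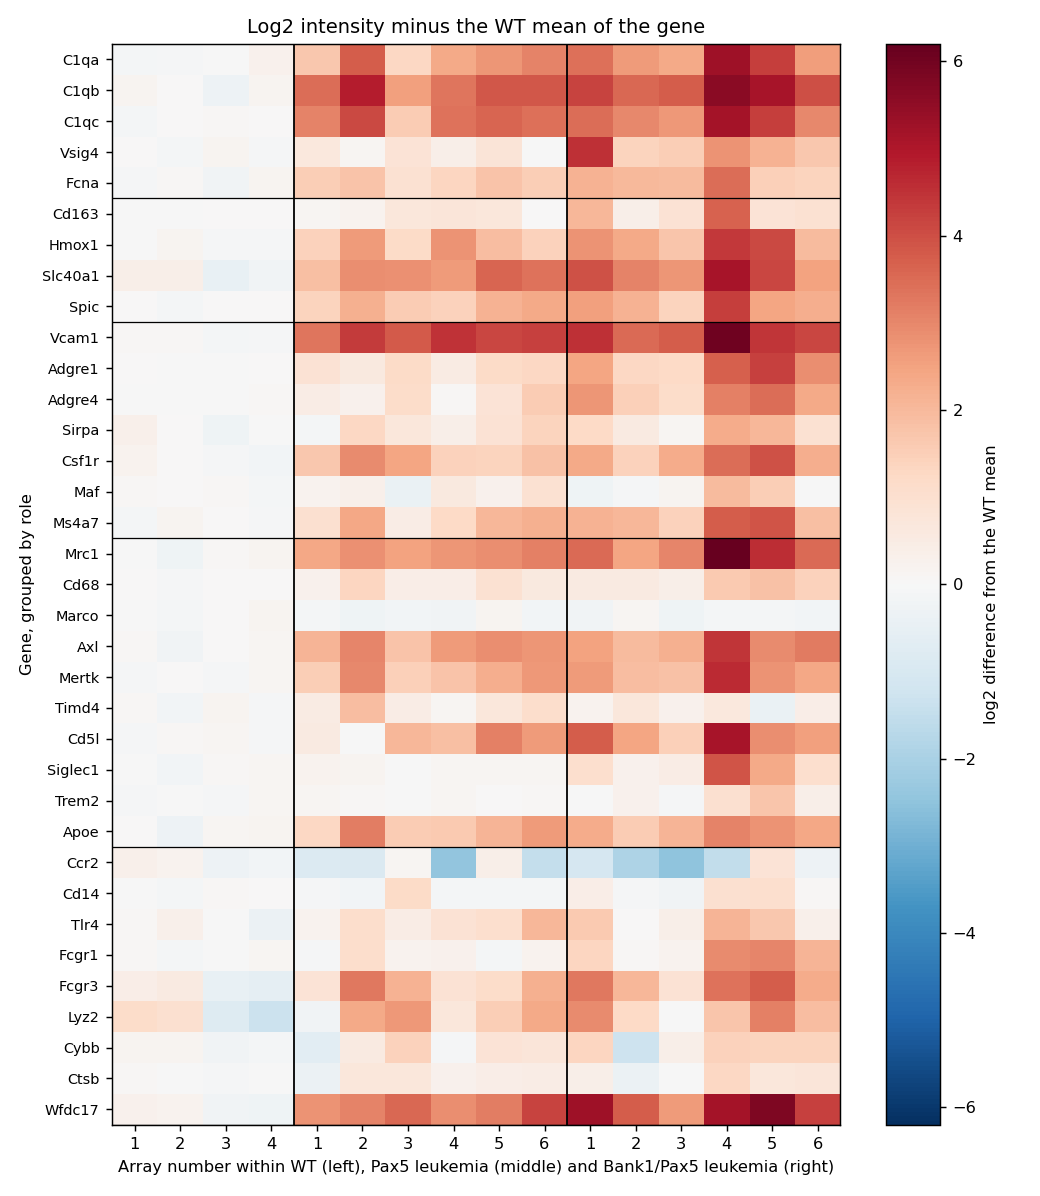
Log2 intensity of each of the 35 genes (rows, grouped by role) on each array (columns) minus the mean of the gene over the 4 WT arrays; red is higher and blue lower. Array 4 of Bank1/Pax5 leukemia holds the highest value of all leukemia arrays for 19 genes and array 5 for 11, and Ccr2 holds the deepest blue cells among leukemia arrays.

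Scavenging and clearance genes gave a mixed picture. Mrc1, the mannose receptor, was at 5.56, 5.32, 5.63 and 5.75 in WT, at 7.95 to 8.70 (median 8.37) in Pax5 leukemia and at 8.02 to 11.74 (median 9.07) in Bank1/Pax5 leukemia. It was 6.73-fold higher than WT in Pax5 leukemia (2.75, SE 0.52, adjusted p = 0.00154) and 14.7-fold higher in Bank1/Pax5 leukemia (3.87, SE 0.52, adjusted p = 0.000121), without overlap with WT. Axl and Mertk encode receptor kinases by which phagocytes take up dying cells. Axl was at 6.67, 6.39, 6.64 and 6.73 in WT, at 8.39 to 9.65 (median 9.31) and at 8.56 to 11.05 (median 9.32), with differences of 2.53 and 2.88 (SE 0.39 each). Mertk was at 5.84, 5.96, 5.85 and 6.03 in WT, at 7.40 to 8.91 (median 7.94) and at 7.74 to 10.56 (median 8.43), with differences of 2.13 and 2.69 (SE 0.46 each). Neither overlapped with WT in a leukemia group, and both peaked on array 2 of Pax5 leukemia and array 4 of Bank1/Pax5 leukemia. Apoe, the lipid carrier apolipoprotein E, was at 8.74, 8.42, 8.82 and 8.88 in WT, at 10.02 to 11.91 (median 10.58) and at 10.27 to 11.77 (median 11.07). It differed from WT by 2.07 and 2.36 (SE 0.34 each), and of the 24 genes called in Bank1/Pax5 leukemia it had the smallest difference between the leukemia groups (0.29, SE 0.31, adjusted p = 0.606).

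Cd5l, a secreted protein of resident macrophages, had the widest range among leukemia arrays of the 35 genes, 5.11. It was at 5.34, 5.47, 5.53 and 5.32 in WT, at 5.99, 5.40, 7.48, 7.26, 8.54 and 8.07 in Pax5 leukemia and at 9.17, 7.87, 6.90, 10.51, 8.30 and 7.98 in Bank1/Pax5 leukemia. Array 2 of Pax5 leukemia was within the WT range although it was the highest of its group for 14 of the 35 genes. Cd5l passed in Bank1/Pax5 leukemia (3.04, SE 0.66, adjusted p = 0.00455) and not in Pax5 leukemia (1.71, SE 0.66, adjusted p = 0.0731). Siglec1 encodes CD169, a sialic acid receptor of marrow macrophages. It was at 6.64, 6.51, 6.74 and 6.80 in WT, at 6.65 to 6.91 on all 6 Pax5 arrays and at 7.70, 6.95, 7.13, 10.57, 9.05 and 7.74 in Bank1/Pax5 leukemia. Every Bank1/Pax5 array lay above every Pax5 and WT array. Between the leukemia groups this held for 2 of the 35 genes (Vsig4 and Siglec1), beside 0.833% of all genes. The lowest Bank1/Pax5 array of Siglec1 (6.95) lay just above its highest Pax5 array (6.91), and Siglec1 was dim in WT and Pax5 leukemia. Siglec1 missed the limma test against Pax5 leukemia (1.39, SE 0.47, adjusted p = 0.0940) and WT (1.51, SE 0.52, adjusted p = 0.0558). Cd68, a lysosomal protein also present in WT, was at 9.24 to 9.37 there, at 9.63 to 10.68 in Pax5 leukemia and at 9.69 to 11.13 in Bank1/Pax5 leukemia, without overlap with WT. It passed in Bank1/Pax5 leukemia (1.05, SE 0.29, adjusted p = 0.0189; 0.0514 without WT array 2 and 0.0720 with the replicate block) and not in Pax5 leukemia (0.66, SE 0.29, adjusted p = 0.108). Marco and Trem2, a scavenger receptor and a lipid sensor, and Timd4, a receptor for phosphatidylserine on dying cells, did not pass in any comparison. Marco stayed at 6.09 to 6.54 on all 12 leukemia arrays and at 6.23 to 6.53 in WT. Timd4 had its highest value, 7.74, on array 2 of Pax5 leukemia, and Trem2 its highest, 8.75, on array 5 of Bank1/Pax5 leukemia. Of the 10 genes of this role, 4 were called higher in Pax5 leukemia and 6 in Bank1/Pax5 leukemia.

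Of 9 genes of monocytes and innate sensing, 2 were called higher in Pax5 leukemia and 3 in Bank1/Pax5 leukemia, beside 9.53% and 6.8% of all genes. Wfdc17, a small secreted protein of activated macrophages and neutrophils, was at 6.98, 6.93, 6.49 and 6.42 in WT, at 9.48 to 10.88 (median 9.80) in Pax5 leukemia and at 9.34 to 12.50 (median 11.40) in Bank1/Pax5 leukemia. It was 9.65-fold higher than WT in Pax5 leukemia (3.27, SE 0.49, adjusted p = 0.000291) and 22.2-fold higher in Bank1/Pax5 leukemia (4.48, SE 0.49, adjusted p = 2.49e-05). Fcgr3 and Fcgr1 encode receptors for immunoglobulin G of low and high affinity. Fcgr3 was at 7.12, 7.27, 6.26 and 6.15 in WT, at 7.55 to 9.98 (median 8.36) and at 7.61 to 10.43 (median 9.49), and differed by 1.76 (SE 0.56, adjusted p = 0.0355) and 2.61 (SE 0.56, adjusted p = 0.00458). The call in Pax5 leukemia ended without WT array 1, 3 or 4 or array 2, 3 or 6 of Pax5 leukemia (adjusted p from 0.0540 to 0.112), with the replicate block (0.118) and without the arrays with low Pax5 (0.0564). Fcgr1 was at 5.69 to 5.91 in WT, at 5.71 to 6.93 in Pax5 leukemia and at 7.16, 5.90, 6.03, 8.75, 8.86 and 7.91 in Bank1/Pax5 leukemia, so arrays 2 and 3 of that group lay near WT. It passed against WT in Bank1/Pax5 leukemia (1.62, SE 0.52, adjusted p = 0.040), and this call ended under 12 of the 26 alternative settings, among them leaving out any 1 WT array (0.0808 to 0.0892) or array 1, 4, 5 or 6 of Bank1/Pax5 leukemia (0.0536 to 0.0756); over all 26 the adjusted p ran from 0.0052 to 0.142.

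Ccr2, the chemokine receptor that brings monocytes out of the marrow, lay lower on average in both leukemia groups than in WT, without passing. It was at 9.64, 9.53, 8.99 and 9.15 in WT, at 6.86 to 9.67 (median 8.46) in Pax5 leukemia and at 6.81 to 10.19 (median 8.03) in Bank1/Pax5 leukemia, with differences of -0.87 (SE 0.61, adjusted p = 0.312) and -1.08 (SE 0.61, adjusted p = 0.235). Lyz2, lysozyme of monocytes, macrophages and neutrophils, was at 11.47, 11.34, 9.56 and 9.01 in WT, at 10.15 to 13.02 (median 12.27) and at 10.34 to 13.45 (median 12.16), and did not pass (1.57 and 1.81, SE 0.71 each). WT arrays 1 and 2 stood above WT arrays 3 and 4 for Lyz2 and also for neutrophil markers. Cybb, a subunit of the phagocyte oxidase that B cells also express, was at 11.14 to 11.56 in WT, 10.73 to 12.81 in Pax5 leukemia and 10.11 to 12.82 in Bank1/Pax5 leukemia. Ctsb, a lysosomal protease of many cells, was at 10.81 to 10.96, 10.49 to 11.56 and 10.51 to 12.13 in the same order. Tlr4 and Cd14, which together sense bacterial lipopolysaccharide, reached 8.34 and 6.97 at most. None of these 4 passed in any comparison.

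The highest values fell on a few arrays. Array 4 of Bank1/Pax5 leukemia held the highest of the 12 leukemia values for 19 of the 35 genes, among them the C1q chains, Vcam1, Mrc1, Mertk, Axl, Slc40a1, Spic, Cd163 and Siglec1. Array 5 of that group held it for 11, among them Adgre1, Adgre4, Csf1r, Fcgr1, Fcgr3, Lyz2, Ccr2 and Wfdc17, and for 17 genes these arrays were the 2 highest. The lowest of the 6 Bank1/Pax5 values was on array 3 for 18 genes and on array 2 for 13. In Pax5 leukemia array 2 was the highest for 14 genes and array 6 for 8, and array 1 was the lowest for 13 and array 3 for 11. Array 3 of Pax5 leukemia was the lowest for the C1q chains, Fcna, Axl, Mertk and Hmox1 and the highest for Lyz2, Cybb and Cd14.

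Markers of other cells were set beside these levels, and their part in the differences was not tested. The median of 13 neutrophil markers was 9.47, 9.29, 7.36 and 7.33 in WT, 7.05, 7.21, 11.70, 7.56, 9.58 and 11.07 in Pax5 leukemia and 12.33, 9.06, 7.84, 10.07, 12.07 and 8.78 in Bank1/Pax5 leukemia. Of the 13, 1 was called higher in Pax5 leukemia than in WT and none in Bank1/Pax5 leukemia. For this list and those below, 9.53% of all genes were called higher than WT in Pax5 leukemia and 13.8% lower. In Bank1/Pax5 leukemia these shares were 6.8% and 12.8%. Neutrophil levels overlapped between all groups, and array 2 of Pax5 leukemia, highest of its group for 14 genes here, had 7.21. The median of 7 megakaryocyte markers was 6.83 to 7.16 in WT, 8.54 to 10.76 in Pax5 leukemia and 9.03 to 11.50 in Bank1/Pax5 leukemia, with 5 and 6 of 7 called higher than WT. That of 14 stromal and endothelial markers was 6.63 to 6.73 in WT, 8.04 to 9.96 in Pax5 leukemia and 8.33 to 9.84 in Bank1/Pax5 leukemia, with 10 and 9 of 14 called higher than WT. Both lists, like the macrophage genes, did not overlap with WT, and each was highest in Bank1/Pax5 leukemia on array 4. Stromal and endothelial levels had group means of 8.90 ± 0.65 (SD, n = 6) and 8.99 ± 0.64 (SD, n = 6) in Pax5 and Bank1/Pax5 leukemia, and none of the 14 was called between them. Natural killer cell markers ran in another order: their median was 8.07 to 8.89 in WT, 5.51 to 5.89 in Pax5 leukemia and 5.77 to 8.34 in Bank1/Pax5 leukemia. Of 9, 7 were called lower than WT in Pax5 leukemia and 4 in Bank1/Pax5 leukemia, and 3 were called higher in Bank1/Pax5 than in Pax5 leukemia. T cell markers had medians of 6.50 to 6.68, 6.02 to 6.66 and 6.47 to 7.28 in the same order of groups, with 2 of 10 called higher in Bank1/Pax5 than in Pax5 leukemia and 1 called lower in Pax5 leukemia than in WT. These were the only marker lists with calls between the leukemia groups, where 1.71% of all genes were called higher in Bank1/Pax5 leukemia. Dendritic cell markers had medians of 9.17 to 9.75, 6.48 to 10.16 and 6.63 to 9.84, with 1 of 9 called lower than WT in each leukemia group. Vcam1, Axl, Apoe and Mrc1 are also expressed by stromal or endothelial cells. B cell precursor markers were at 10.50, 11.46, 11.56, 8.09, 10.07 and 8.93 on arrays 1 to 6 of Bank1/Pax5 leukemia. On arrays 1 to 6 of Pax5 leukemia they were at 10.97, 11.70, 8.41, 10.57, 7.80 and 11.75.

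**Figure D5:**
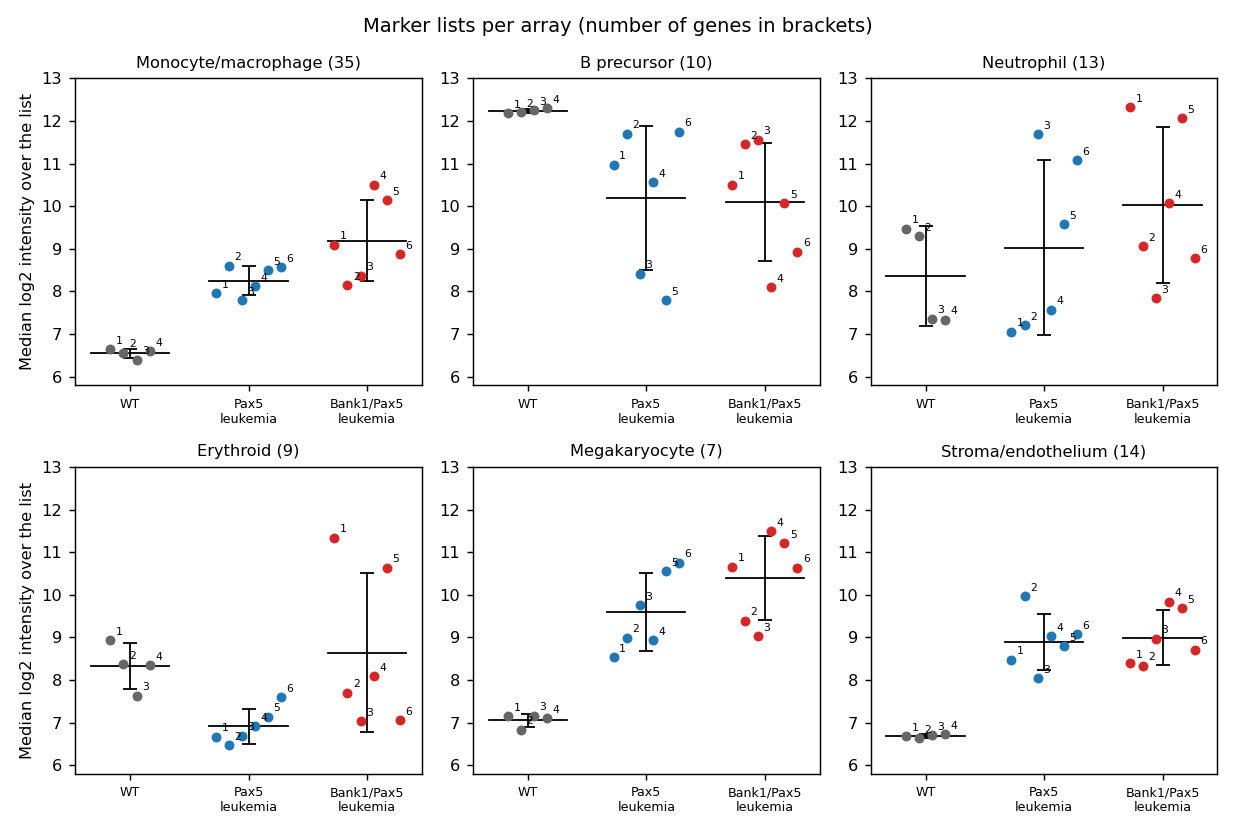
Median log2 intensity per array of the 35 monocyte and macrophage genes and of marker lists of 5 other cell types; points are arrays with their number, lines are means and bars are 1 SD. Megakaryocyte and stromal lists separate leukemia from WT as the macrophage genes do, whereas neutrophil levels run from 7.05 to 12.33 on leukemia arrays and overlap with WT.

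Genes that act with the 35 or mark the same cells were listed by role, and none of them is one of the 35. In Pax5 leukemia 7 of 47 were called higher and 3 lower than WT, and in Bank1/Pax5 leukemia 16 higher and 2 lower, beside 9.53% of all genes called higher and 13.8% lower in Pax5 leukemia and 6.8% and 12.8% in Bank1/Pax5 leukemia. With the replicate block these were 2 and 2, and 7 and 1. Leaving out any 1 WT array left 6 calls in Pax5 leukemia and 11 to 12 in Bank1/Pax5 leukemia, and 6 were left in Pax5 leukemia without its array 5. Among ligands and partners 3 of 15 rose in each group, including Pros1, a ligand of Axl and Mertk family receptors (2.04, SE 0.55, adjusted p = 0.0147 and 2.54, SE 0.55, adjusted p = 0.00446), and Itgb1, an integrin chain that pairs to bind Vcam1 (0.77 and 0.81, SE 0.21 each). Gas6, the other ligand of that family, passed in Bank1/Pax5 leukemia (1.68, SE 0.46, adjusted p = 0.0189), and Csf1 and Il34, the ligands of Csf1r, did not pass in any comparison (adjusted p from 0.0855 to 0.837). Among 11 myeloid transcription factors 1 rose and 2 fell in Pax5 leukemia and 4 rose and 2 fell in Bank1/Pax5 leukemia. Nr1h3, a sterol-sensing receptor of macrophages, rose in both (0.99 each, SE 0.31), and Tfec, a factor of macrophages, rose by 3.33 in Bank1/Pax5 leukemia (SE 0.67, adjusted p = 0.00274). Nr4a1, needed for patrolling monocytes and induced early in many cells, fell by 1.85 and 1.23 (SE 0.28 each), and Zeb2 fell by 1.27 and 1.18 (SE 0.34 each). Of 21 other phagocyte genes, 3 rose and 1 fell in Pax5 leukemia and 9 rose in Bank1/Pax5 leukemia, with the prostaglandin-degrading enzyme Hpgd at 1.64 and 2.59 (SE 0.34 each) and the lysosomal protease Ctsd at 1.47 and 1.5 (SE 0.31 each). Blvrb, also among the 21, was lower on every Pax5 array (8.54 to 9.89) than on any WT array (10.50 to 10.72). In Bank1/Pax5 leukemia Blvrb ran from 8.58 to 10.93 and overlapped with WT. Between the leukemia groups none of the 47 was called by limma. An unadjusted limma p under 0.05 was found for 8 of the 47, beside 4518 of all 19938 genes. Without array 2 of Bank1/Pax5 leukemia 4 of the 47 were called (Bach1, Hpgd, Ly96 and Tfec).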

How the data were processed

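RNA of 16 mouse marrow samples was biotin-labelled and hybridised to 1 array each. The values are the authors' deposited log2 probe set intensities, made with RMA and the oligo package per the submitters' processing notes; their versions and settings and the array's genome build are not given in the sources used. Array medians were 6.58 to 6.71, and no further scaling was applied. Precision is limited by the number of arrays. Of 35556 probe sets, 21789 named 1 gene, 1621 several and 12146 none; the probe set with the highest mean was kept per gene. The 35 genes have 1 probe set each. limma 3.58.1 in R 4.3.3 fitted a mean per group to all arrays with empirical Bayes moderation, 1 spread per gene and no filter; SE is moderated. The genes, roles, marker lists and tests were chosen with earlier results of these data known. All 35 genes are named; of the 47 related genes, called ones of small p and ligands of member receptors. Alternatives were a dim filter, the mean of probe sets, cyclic loess, median centring, variance trend with robust moderation, array and group weights, 2-group fits, the replicate block and leaving out each array; leaving out arrays with low Pax5 was added after seeing the data. In 5 simulations with equal spread, 85.8% of genes shifted by 1 were recovered between the leukemia groups, with 5.63% of calls false (85.4% and 5.81% for Pax5 leukemia, 85.8% and 5.21% for Bank1/Pax5 leukemia, against WT). In each simulation 200 shifted genes were drawn from all genes, and no other gene differed between groups. In the data the spread differed between groups, as for Siglec1 (SD 0.086 in Pax5 and 1.38 in Bank1/Pax5 leukemia). Between the leukemia groups Vsig4, Adgre1 and Adgre4 were called, whereas Mrc1 (1.12, SE 0.46), Cd5l (1.33, SE 0.59) and Siglec1 (1.39, SE 0.47) were not. The simulated rates are therefore not rates for the 35 genes. Equal replicate numbers showed no sign of pairing arrays. Deviations from group means correlated at -0.379 to 0.321 over 14 pairs of equal number and at -0.384 to 0.578 over pairs of unlike number. These correlations cannot exclude a shared batch.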

Additional observations from a re-analysis of the deposited data

Results flagged for a closer look

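Of 108 sets of values (35 genes and their shared level in 3 groups), 6 held an array far from the others of its group by Dixon's criterion, and chance flags about 1 set in 20. Cd14 was at 6.97 on array 3 of Pax5 leukemia, with the other 5 arrays at 5.63 to 5.68; that array is also the highest of its group for neutrophil markers, at 11.70, and the lowest for Pax5, at 7.52. Fcgr1 was at 6.93 on array 2 of Pax5 leukemia, with the others at 5.71 to 6.08, and this array had the highest stromal and endothelial level of all, 9.96. Mertk was at 10.56 on array 4 of Bank1/Pax5 leukemia, with the others at 7.74 to 8.70. Marco was at 6.54 on array 5 of Pax5 leukemia, with the others at 6.11 to 6.24, all under the dim level. In WT array 2 was low for Spic, at 5.53 with the others at 5.68 to 5.69, and for Cd68, at 9.24 with the others at 9.36 to 9.37. Both gaps in WT are small beside the differences between groups.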

How the results depend on the processing

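The counts of called genes stayed within 1.5 times of 16 in Pax5 leukemia and of 24 in Bank1/Pax5 leukemia under all alternatives run (14 to 21 and 20 to 27; without 1 array, 14 to 18 and 20 to 27). Between the leukemia groups the 3 calls became 0 in the fit without WT and 1 without the arrays with low Pax5, and 2 to 5 when 1 array was left out. With the replicate number as a block, which showed no sign of pairing arrays, 14, 21 and 2 genes were called in the 3 comparisons. The shared level kept its direction and moved by less than 1 SD when 1 array was left out (1.64 to 1.80 and 2.38 to 2.85 against WT, 0.67 to 1.14 between the leukemia groups) and under both scalings.

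Related genes called in Pax5 leukemia were 10, and 23 with array weights, 20 with a spread per group, 19 in the fit of the 2 groups alone, 4 with the block and 6 to 13 without 1 array. In Bank1/Pax5 leukemia they were 18, and 8 with the block, 10 on leaving out the low-Pax5 arrays and 11 to 21 without 1 array. Between the leukemia groups they were 0, and 1 without dim genes, 1 after cyclic loess and 1 with the block (Ly96 each time), and 0 to 4 without 1 array.

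No difference that changed sign was called in either setting. In Pax5 leukemia against WT these were Trem2 with the block (-0.052) and Cd14 without the arrays with low Pax5 (-0.12; -0.12 to 0.15 without 1 array). Between the leukemia groups Marco was -0.032 after cyclic loess, -0.0088 after median centring, -0.028 with array weights and -0.045 to 0.064 without 1 array, and Ccr2 was 0.022 with array weights and -0.60 to 0.081 without 1 array. Without the arrays with low Pax5, C1qc was -0.050, Tlr4 -0.36 and Lyz2 -0.13. Without 1 array, Maf ran from -0.066 to 0.38, Tlr4 from -0.15 to 0.28, Lyz2 from -0.11 to 0.61 and Ctsb from -0.066 to 0.26. The cause of these changes was not tested. Of the 35 genes, 25 were dim in WT, which limits how well their differences from WT are sized.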
